A study of Homo sapiens with 6 samples.

Results

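Hairpin induction was followed in 2 clones of H1 cells, a human embryonic stem cell line, that carry a hairpin-resistant EXOSC3 transgene. The members are the 4 libraries whose labels name EXOSC3r clone 1 or clone 2, 2 with and 2 without doxycycline (dox), out of 6 libraries in the series. Each file lists 1047 sequences, of which 1045 bear repeat names and 2 are the reference transcripts ACTB and GAPDH. Of these, 799 had a count in at least 1 library, and 699 with at least 10 counts in at least 1 library were tested.

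All cells of the series carry a dox-inducible short hairpin RNA against EXOSC3 and were used at passages 40 to 60. The EXOSC3r group holds clones 1 and 2 without dox, and the EXOSC3r dox group holds the same clones with dox, which the labels write as 2 mg/ml. The remaining pair of libraries, with and without dox, comes from cells with an empty vector (PB) in place of the transgene. Each EXOSC3r line is a single clone, no library lacks the hairpin, and the levels of EXOSC3 and of pluripotency markers were not analysed here. An effect of dox itself, of hairpin expression or of a remaining loss of EXOSC3 therefore cannot be told apart.

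The product of EXOSC3 belongs to the RNA exosome, which trims and degrades RNA from its 3′ end and acts on many non-coding transcripts. A transgene that the hairpin cannot target is the usual control for effects of a hairpin beyond its target. Repeats differ widely in how they are transcribed. Alpha satellites are tandem arrays at centromeres, HERVH is an endogenous retrovirus driven by LTR7 promoters and active in human pluripotent cells, and L1 and Alu are retrotransposons that also lie within the introns and untranslated ends of many genes.

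The assigned counts summed to 4620770 without and 5260200 with dox in clone 1, and to 3941990 and 3745260 in clone 2. Of these, Alu, a short interspersed repeat, held 45.4% without and 52.5% with dox in clone 1, and 41.8% and 40.1% in clone 2 (95% Clopper-Pearson intervals 45.37 to 45.47, 52.48 to 52.56, 41.78 to 41.88 and 40.09 to 40.18, counting error only). Values below are CPM, counts scaled to the library's size, after TMM scaling, which centres each library on the bulk of its sequences. A log2 change is dox over no dox, and its error is the standard error (SE) of the edgeR fit.

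Most repeat names had small differences, and the clones shared a direction for 54.6% of them. The median log2 change over the 699 sequences was 0.01, and the central 90% lay between -0.45 and 0.61. Both clones were higher with dox for 192 sequences and lower for 190, and the other 317 had no shared direction. The shared direction covered 66.7% of the 69 sequences with a mean of at least 1000 CPM and 51.6% of the 273 between 10 and 100 CPM. Across the 254 sequences with a mean of at least 100 CPM the log2 ratios of the clones had a Pearson correlation of 0.41 and a Spearman correlation of 0.23. Without the alpha satellite, HERVH and LTR7 names, 247 sequences were left, with a Pearson correlation of 0.02 and a Spearman correlation of 0.17. Each clone's ratio comes from 1 pair of libraries, and sequences are not independent replicates, so these values describe the data only.

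**Figure D1:**
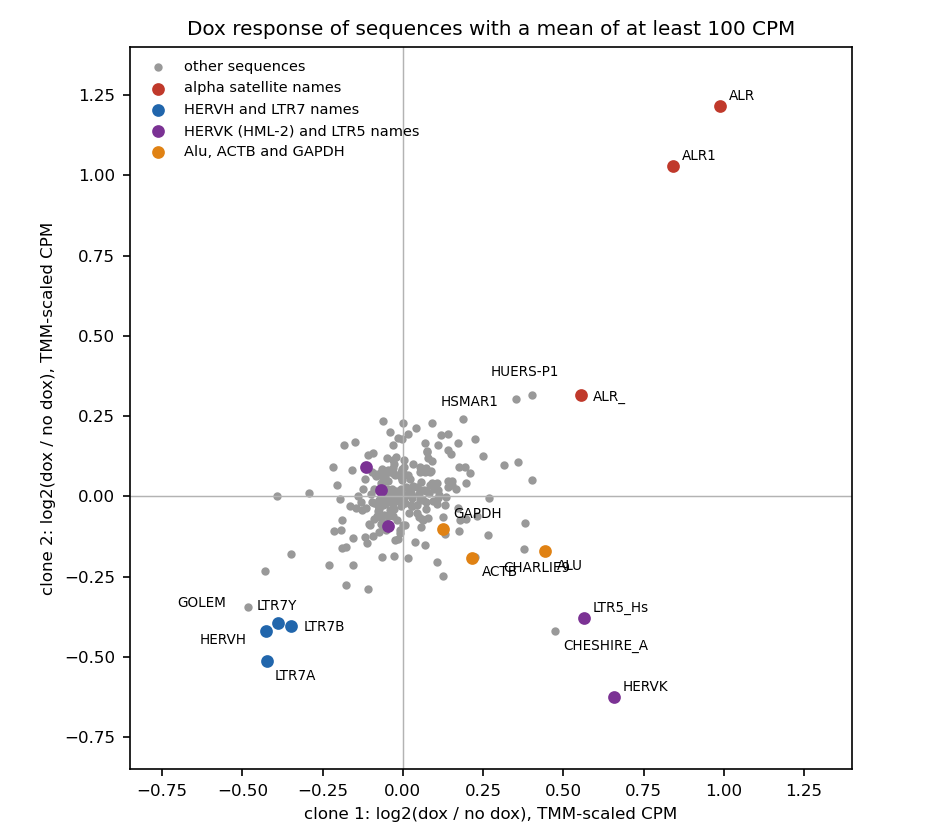
Log2 ratio of dox to no dox in clone 1 (x axis) and clone 2 (y axis), from TMM-scaled CPM, for the 254 sequences with a mean of at least 100 CPM, 1 point per sequence. Most points lie near the origin, ALR and ALR1 stand at the upper right, HERVH and 3 LTR7 names at the lower left, and HERVK and LTR5_Hs at the lower right, where clone 1 was higher and clone 2 lower with dox.

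In the edgeR quasi-likelihood test with Benjamini-Hochberg adjustment, 1 of 699 sequences rose (0.143%) and 0 fell (0%). At an unadjusted p under 0.05 there were 13 higher and 9 lower sequences, 22 in all, against 34.95 that such a threshold gives by itself. DESeq2 called 4 sequences, with ALR, ALR1 and ALRb higher and HERVH lower. The 2 libraries of a clone come from the same line, so the clone was also fitted as a block, which compares dox and no dox within each clone and leaves 1 residual degree of freedom. With the block 4 sequences rose (0.572%) and 5 fell (0.715%). All 9 moved the same way in both clones when read as plain shares of the assigned counts, with no scaling. The block favours sequences that move alike in both clones, so this is a description and not separate support. The 2 clones' values with dox lay wholly above those without dox for 107 sequences (15.3%) and wholly below for 103 (14.7%), the level that the counts of single lists are read against. On total counts these numbers were 45 and 64, and on ACTB and GAPDH scaling 30 and 35.

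The alpha satellites had the highest median change of the lists with at least 3 tested names. After TMM scaling all 7 alpha satellite names had higher values with dox in both clones, against 27.5% of all sequences. The groups did not overlap for 5 of the 7, against 15.3%. As plain shares of the assigned counts the 7 together went from 0.041% to 0.057% in clone 1 and from 0.058% to 0.103% in clone 2. For ALRa_ in clone 1 the direction depends on the scaling. Their median log2 change was 0.64, with 0.55 in clone 1 and 0.86 in clone 2. One name, ALR, passed in the edgeR test, and ALR and ALR1 passed with the block. In these bulk libraries a change in the share of some cells cannot be told apart from a change in RNA per cell.

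ALR is the general alpha satellite consensus. Its level went from 106 to 211 CPM in clone 1 and 109 to 253 CPM in clone 2. Both dox libraries stood clear of both untreated ones, and the untreated clones were nearly level. Mean levels were 108 ± 1.75 CPM without and 232 ± 29.5 CPM with dox (SD over n = 2 clones). The log2 change was 1.11 ± 0.11, with an edgeR adjusted p = 0.026 without and 0.0153 with the block. The call rested on 429 and 827 estimated counts in clone 1 and 435 and 1039 in clone 2. Without the clone 1 library lacking dox it was lost (adjusted p = 0.14), as it was with DESeq2 size factors (0.059), total counts (0.98), ACTB and GAPDH scaling (1.00) and limma on TPM (0.999 and 0.998 with a pseudocount of 1 and 0.1). Without the clone 2 library with dox, and with the tested sequences kept, the adjusted p was 0.0518.

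ALR1, a variant of the same monomer, went from 87.2 to 157 CPM in clone 1 and 92.3 to 189 CPM in clone 2, again without overlap. Its log2 change was 0.95 ± 0.12 (edgeR adjusted p = 0.0517), and 0.0153 was its adjusted p with the block. ALRb went from 23.5 to 50.1 CPM and from 26.5 to 48.5 CPM in clones 1 and 2 (log2 0.98 ± 0.15, adjusted p = 0.11, and 0.087 with the block). Both names were called by DESeq2 (adjusted p = 0.000229 for ALR1 and 0.0317 for ALRb), and ALR1 passed in 10 of the 20 alternatives.

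The remaining alpha satellite names had smaller or less even differences, and none passed in either fit. ALR_ went from 183 to 268 CPM in clone 1 and 276 to 343 CPM in clone 2, so that clone 2 without dox exceeded clone 1 with dox. ALR2 went from 42.1 to 49.8 CPM and from 37.0 to 53.8 CPM. ALRa went from 16.6 to 24.3 CPM and from 26.8 to 36.0 CPM. ALRa_ was nearly level in clone 1 (10.4 and 10.5 CPM, and lower with dox as a plain share of counts). In clone 2 it went from 5.50 to 14.4 CPM. Reads that fit several of these near-identical sequences were divided between them by estimation, so the 7 were also summed. The sum had a log2 ratio of 0.72 in clone 1 and 0.71 in clone 2. In a fit with summed names its change was 0.71 ± 0.13 (edgeR adjusted p = 0.89), and 0.71 ± 0.04 with the block (adjusted p = 0.0105).

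**Figure D2:**
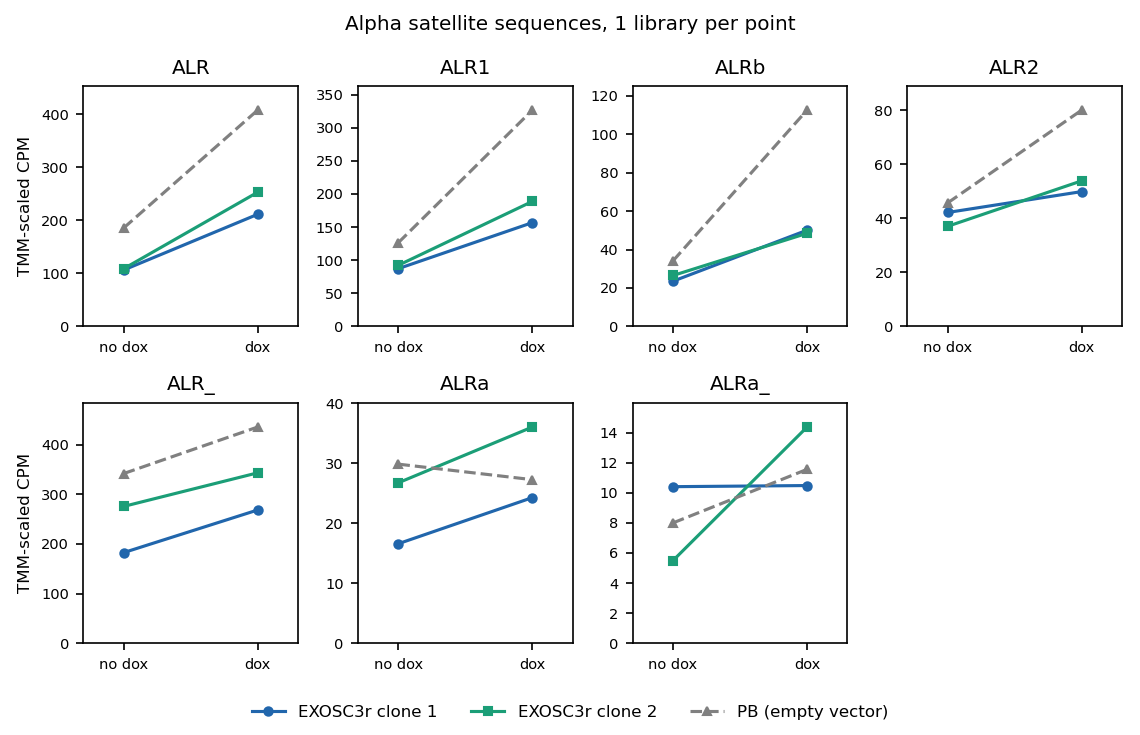
TMM-scaled CPM (y axis, from 0) of the 7 alpha satellite names without and with dox, 1 point per library, with lines joining the libraries of a line. ALR, ALR1 and ALRb had about the same slope in both clones, and the empty-vector line, dashed, stood above both clones in these 3 panels.

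None of the other satellites passed in either edgeR fit. Of their 13 tested names, 4 were higher in both clones and 3 lower, and the median log2 change was -0.01. HSAT5 went from 45.1 to 58.3 CPM in clone 1 and 54.5 to 63.6 CPM in clone 2. SATR1 went from 23.8 to 14.6 CPM in clone 1 and was level in clone 2 (19.3 and 19.2 CPM). HSAT4 had the lowest fitted change of all sequences, but it rested on 7 and 0 estimated counts in clone 1 and 13 and 3 in clone 2. In limma on TPM it was called lower at both pseudocounts (adjusted p = 2.89e-05 with 1 and 4.62e-12 with 0.1). The limma log2 change was -3.25 with a pseudocount of 1 and -4.92 with 0.1. At so few counts it depends on the pseudocount, and these calls are no support for a change. GGAAT, named for the pentamer of the classical satellites and outside these lists, went from 63.4 to 132 CPM in clone 1 and 59.3 to 54.6 CPM in clone 2.

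HERVH and its LTR7 promoters had the lowest median change of those lists. All 5 names had lower values in both clones, against 27.2% of all sequences, and the groups did not overlap for 4 of the 5, against 14.7%. The median log2 change was -0.39, with -0.39 in clone 1 and -0.41 in clone 2. None of the 5 passed in the fit without the block, and 4 of the 5 fell in the fit with it.

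HERVH, the internal sequence of the provirus, went from 27573 to 20520 CPM in clone 1 and 28170 to 21047 CPM in clone 2. The spread between clones was small at both levels. The means were 27872 ± 422 and 20784 ± 373 CPM (SD over n = 2 clones). The fitted log2 change was -0.42 ± 0.09 (edgeR adjusted p = 0.39). With the block the SE was 0.03 and the adjusted p was 0.0153. As a share of the assigned counts HERVH went from 2.41% to 1.53% in clone 1 and from 2.86% to 2.31% in clone 2, the same direction as in scaled CPM.

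The LTR7 variants are promoters and ends of HERVH proviruses. LTR7Y went from 5928 to 4526 CPM in clone 1 and 5401 to 4112 CPM in clone 2 (log2 -0.39 ± 0.09, edgeR adjusted p = 0.45, and 0.0175 with the block). LTR7A went from 9884 to 7363 CPM and from 7462 to 5230 CPM, and LTR7B from 4221 to 3319 CPM and from 3440 to 2597 CPM. For these 2 variants clone 1 stood above clone 2 both without and with dox, and their adjusted p was 1.00 without the block and 0.0175 and 0.0268 with it. LTR7C, at 111 and 103 CPM in clone 1 and 90.8 and 76.5 CPM in clone 2, did not pass in either fit, and its fitted change was 0.03 without the clone 2 library with dox. The sum of the 5 names changed by -0.42 ± 0.10 (edgeR adjusted p = 0.89), and by -0.42 ± 0.03 with the block (adjusted p = 0.0312).

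**Figure D3:**
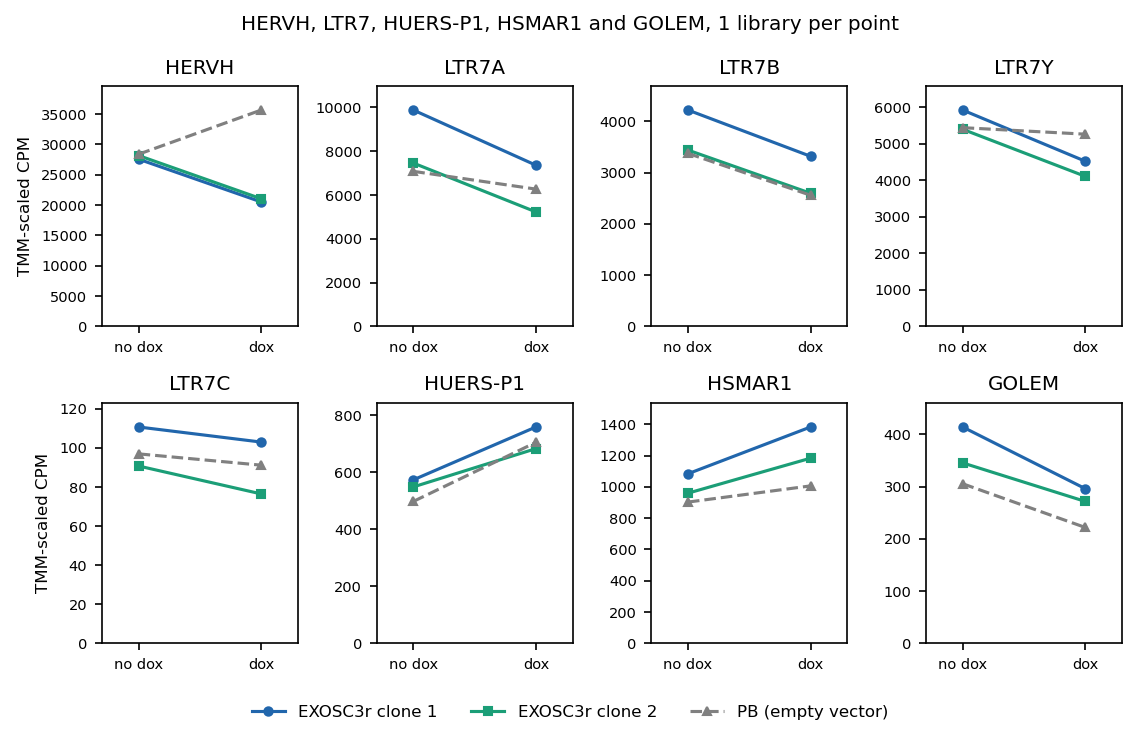
TMM-scaled CPM (y axis, from 0) without and with dox of HERVH, 4 LTR7 variants, HUERS-P1, HSMAR1 and GOLEM, 1 point per library. The 2 clones had near-parallel lines in each panel except LTR7C, and the empty-vector line, dashed, went the opposite way for HERVH alone.

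Further sequences passed only with the clone as a block. HUERS-P1, an endogenous retrovirus, rose from 573 to 758 CPM in clone 1 and 548 to 682 CPM in clone 2 (log2 0.36 ± 0.08, edgeR adjusted p = 0.42, and 0.0386 with the block). The other HUERS-P names did not pass in either edgeR fit. HUERS-P2 went from 75.3 to 59.6 CPM and from 71.5 to 61.6 CPM, and HUERS-P3 from 350 to 401 CPM and from 340 to 324 CPM. HUERS-P3B went from 809 to 913 CPM and from 827 to 881 CPM, higher with dox in both clones without overlap after TMM scaling. In clone 1 its direction depends on the scaling, since its plain share of the assigned counts was lower with dox.

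HSMAR1, a mariner-type DNA transposon, rose from 1084 to 1383 CPM in clone 1 and 960 to 1183 CPM in clone 2 (log2 0.33 ± 0.10, edgeR adjusted p = 0.90, and 0.0386 with the block). GOLEM, listed with the DNA transposons, fell from 414 to 296 CPM and from 345 to 272 CPM (log2 -0.42 ± 0.10, adjusted p = 0.59, and 0.0411 with the block). Among the 50 tested names of DNA transposons, 18 were higher in both clones and 12 lower, with a median of 0.06. The 2 sequences thus moved in opposite directions within a list that was close to the median of all sequences.

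Several retroviral sequences with a small unadjusted p did not pass in either fit. HERV4_I, an internal sequence, went from 3053 to 2267 CPM in clone 1 and 3061 to 2604 CPM in clone 2 (log2 -0.33 ± 0.09, edgeR adjusted p = 0.63). HERV19I, also internal, went from 319 to 272 CPM and from 311 to 268 CPM. LTR1C, a retroviral promoter, went from 12.6 to 20.4 CPM and from 14.8 to 22.9 CPM. The dox and untreated libraries did not overlap for any of these 3. Further LTR names with a small unadjusted p were LTR2752 (log2 0.82 ± 0.21, edgeR adjusted p = 0.59) and LTR21A (log2 0.54 ± 0.16, edgeR adjusted p = 0.90). MER57E2 was listed at 0 without dox in both clones and at 5.45 and 16.1 estimated counts with dox, too few for a fold change. Of its counts in the clones only 16.1, with dox, reached the minimum of the count filter. It did not pass in edgeR, and limma on TPM called it higher (adjusted p = 6.97e-09 with a pseudocount of 1 and 2.27e-09 with 0.1). The limma log2 change of MER57E2 was 1.76 with a pseudocount of 1 and 4.52 with 0.1. At so few counts this change depends on the pseudocount, and these calls are no support for a change.

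The L1 and SVA retrotransposons stood near the median of all sequences. The youngest L1 names, L1HS to L1PA4, had log2 changes between -0.06 and -0.02, and none of the 4 passed. L1HS, the youngest human L1 group, was at 52537 and 53255 CPM in clone 1 without and with dox and at 56098 and 54096 CPM in clone 2. The untreated clones differed by more than either clone did with dox. SVA_A, a composite retrotransposon, was at 6713 and 6460 CPM and at 6287 and 6181 CPM. The 33 older primate L1 names had a median of -0.01 and the 75 mammalian-wide L1 names a median of 0.00, with 0 called in either list by edgeR. The medians were 0.01 over 41 MaLR names, 0.00 over 21 ERVL names, -0.01 over 137 LTR-type MER names and 0.02 over 153 other LTR names, again with 0 edgeR calls.

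**Figure D4:**
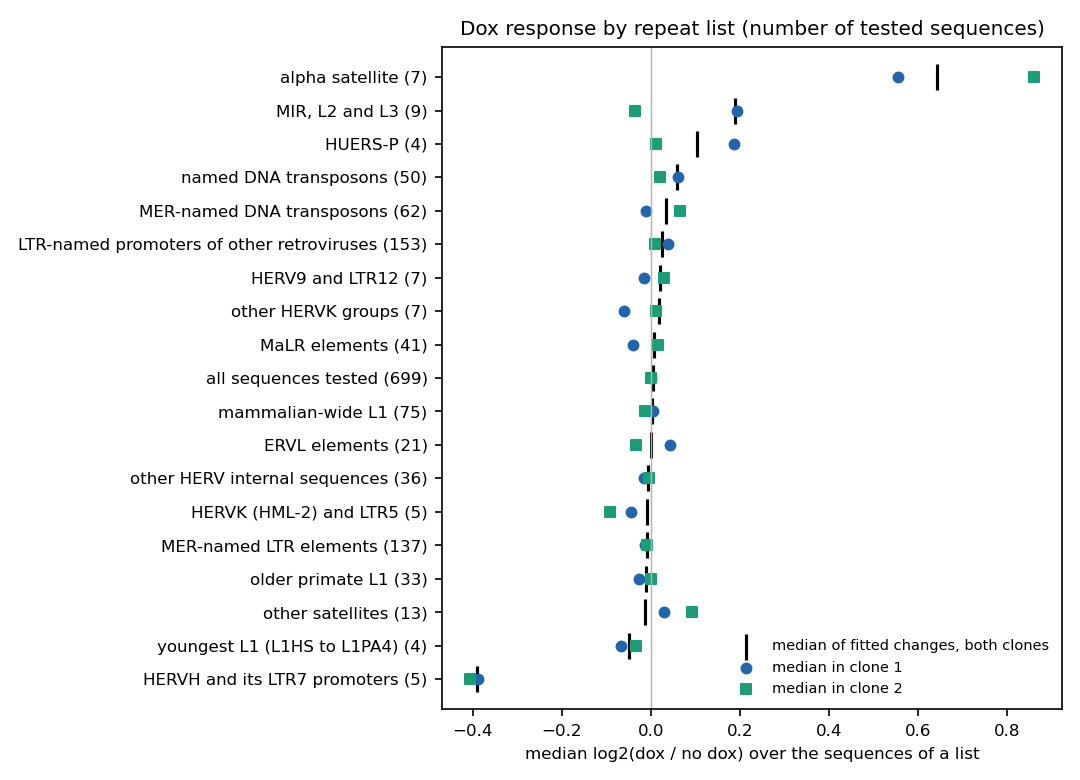
Median log2 ratio of dox to no dox (x axis) for each repeat list with at least 3 tested names (y axis, number of names in brackets): black bars are medians of the fitted changes, circles clone 1 and squares clone 2. The alpha satellite and HERVH/LTR7 lists lie apart from the other lists, whose fitted medians are between -0.05 and 0.19.

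A further set of abundant sequences went in opposite directions in the 2 clones. HERVK, the HML-2 provirus and the youngest endogenous retrovirus group in the genome, went from 5050 to 7974 CPM in clone 1 and 6437 to 4171 CPM in clone 2. Its log2 ratios were 0.66 and -0.63, and the fitted change over both clones was 0.08 ± 0.29 (edgeR adjusted p = 1.00). Its youngest promoter, LTR5_Hs, did likewise, from 1343 to 1987 CPM in clone 1 and 1553 to 1193 CPM in clone 2. The older LTR5A (622 and 603 CPM, 602 and 565 CPM) and LTR5B (492 and 469 CPM, 459 and 465 CPM) did not share this pattern. As shares of the assigned counts HERVK also went opposite ways, from 0.441% to 0.593% in clone 1 and from 0.653% to 0.457% in clone 2. With 1 library per clone and arm this difference between clones could not be tested.

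Alu had log2 ratios of 0.44 in clone 1 and -0.17 in clone 2, and ACTB 0.21 and -0.19. GAPDH had 0.12 and -0.10. In PB cells Alu went from 327007 CPM without to 271963 CPM with dox, the direction of clone 2. For ACTB and GAPDH in clone 1, and for GAPDH in clone 2 (8.86% without and 8.93% with dox), the direction depends on the scaling, since in clone 1 their shares of the assigned counts were lower with dox, at 6.47% against 6.55% for ACTB and 9.69% against 10.4% for GAPDH. CHESHIRE_A and CHARLIE9, names of hAT-type DNA transposons, also differed by clone: the first went from 179 to 249 CPM in clone 1 and 199 to 149 CPM in clone 2, the second from 105 to 136 CPM and from 88.8 to 79.2 CPM. Whether these differences follow from dox or from the 2 clone 1 libraries, which held the highest Alu shares of the 6, was not tested.

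**Figure D5:**
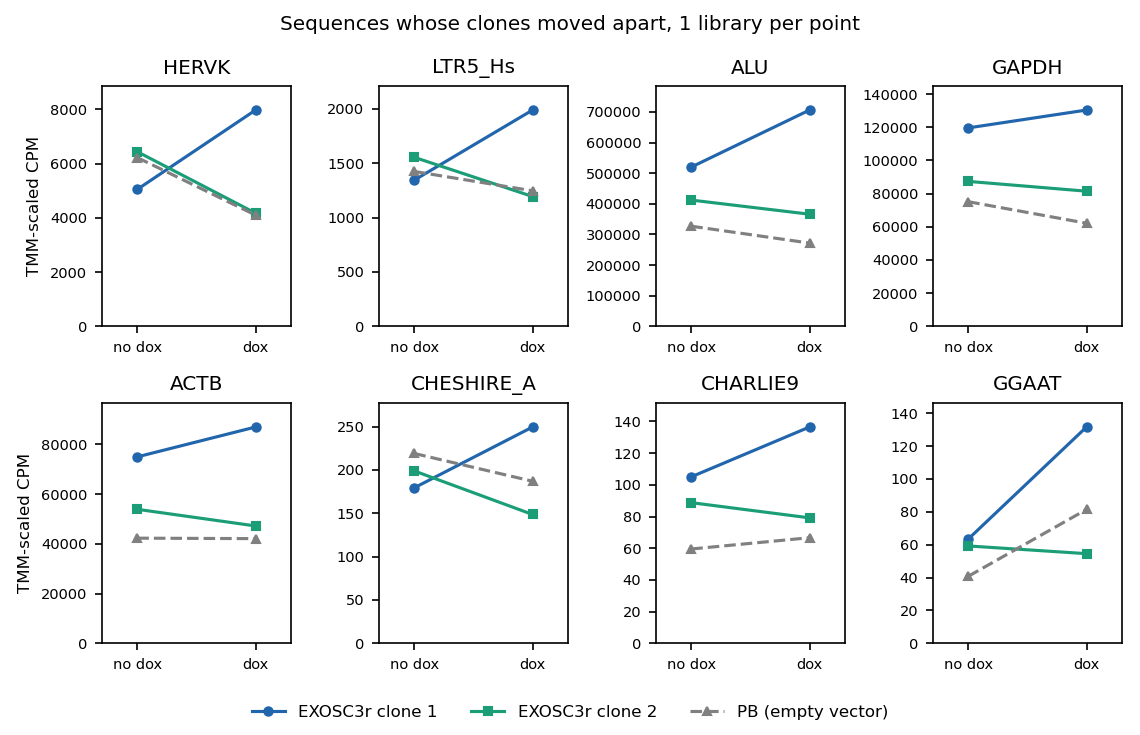
TMM-scaled CPM (y axis, from 0) without and with dox of 8 sequences whose clones moved in opposite directions, 1 point per library. Clone 1 was higher and clone 2 lower with dox in each panel; as shares of counts ACTB and GAPDH were lower with dox in clone 1, and GAPDH higher in clone 2. The empty-vector line, dashed, was lower with dox, as clone 2 was, for HERVK, LTR5_Hs, ALU and GAPDH. For GGAAT it followed clone 1.

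The EXOSC3r response was then set against that of the empty-vector line, which has 1 library per arm. The error of a test between the 2 responses therefore comes from the clones alone. Over all 699 sequences the mean of the clones' log2 ratios had a Pearson correlation of 0.06 with the PB ratio. Over the same sequences the correlation between the 2 clones was 0.008. By mean level, the correlation with PB was 0.08 under 10 CPM and -0.09 from 10 to 100 CPM. It was 0.63 from 100 to 1000 CPM and 0.20 at 1000 CPM or more. Of the 9 sequences called with the block, 8 had the same direction in PB cells, and of the 22 with an unadjusted p under 0.05, 18 had. The same share over all sequences was not computed, and the 9 include related names. The 5 HERVH and LTR7 names had a median PB log2 ratio of -0.09, and their sum went from 44394 to 49868 CPM in PB cells. GOLEM went from 305 to 222 CPM in PB cells, HUERS-P1 from 497 to 704 CPM and HERV4_I from 3520 to 2686 CPM, all in the direction seen in both clones. The exception among the 9 was HERVH, at 28393 CPM without and 35679 CPM with dox in PB cells.

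In the interaction test, 0 of 699 sequences differed between the responses (0%; edgeR, adjusted; 9 at an unadjusted p under 0.05, and 3 by DESeq2). With the line as a block 3 differed (0.429%), and these were HERVH, MER22 and 6kbHsap. For HERVH the log2 response of PB cells exceeded that of the clones by 0.75 ± 0.15 (edgeR adjusted p = 0.40 without and 0.0202 with the block). The satellite names MER22 and 6kbHsap, kept apart from the lists above, were nearly level in the clones, MER22 at 183 and 191 CPM in clone 1 and 195 and 185 CPM in clone 2, and 6kbHsap at 1482 and 1557 CPM and at 1496 and 1575 CPM, while in PB cells they went from 202 to 431 CPM and from 1529 to 2863 CPM. Their responses differed by 1.10 ± 0.13 and 0.83 ± 0.11 (edgeR adjusted p = 0.0763 for both without the block, and 0.0235 and 0.0202 with it). For ALR the responses differed by 0.03 ± 0.18 and for ALR1 by 0.42 ± 0.19 (both adjusted p = 1.00). For ALRb, at 34.1 and 113 CPM in PB cells, the PB response was larger by 0.74 ± 0.24, with an unadjusted p of 0.021 and an edgeR adjusted p of 1.00. ACRO1, another satellite, was at 1.49 and 1.53 CPM in clone 1, 2.25 and 2.19 CPM in clone 2 and 2.73 and 29.3 CPM in PB cells. Its responses differed by 3.41 ± 0.69 (unadjusted p = 0.0023, edgeR adjusted p = 0.40), from 13.7 and 162 estimated counts in PB cells and under 10 in each clone library.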

How the data were processed

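Total RNA depleted of rRNA was sequenced with strand from 6 libraries. The tools named in the submitters' processing notes are Salmon 0.13.0, Trimmomatic 0.36 and bcl2fastq 2.17. The index, options and build are not given in the sources used here. Per the file headers, the authors deposited estimated counts and TPM for each repeat name, in which near-identical repeats share reads by estimation, so single names are uncertain. The 2 accession-named sequences were matched to ACTB and GAPDH in the RefSeq table.

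Estimated counts were rounded and tested in edgeR 4.0.16 (R 4.3.3; TMM, quasi-likelihood, 4 group means over all 6 libraries, at least 10 counts in at least 1 library, two-sided, Benjamini-Hochberg threshold 0.05). The main fit has 2 residual degrees of freedom and a biological coefficient of variation of 12.2%. Each clone's log2 ratio used a prior count of 2. P-values set a change against the spread between 2 clones, which edgeR estimates partly from all sequences together. In the block fit that spread is the difference between the clones' dox responses. Same-numbered libraries come from the same clone: the gap between clones without dox and that with dox correlated across 699 sequences (Pearson 0.15), and more so across the 254 at or above a mean of 100 CPM (0.61). The line was therefore also fitted as a block. No libraries were copies (chi-square per degree of freedom of at least 21.0 for every pair).

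Candidates for naming were those called in either fit, the 12 with the smallest p in each direction, and the most abundant and the most changed name of each list. All alpha satellite, HERVH/LTR7 and reference names and the 5 abundant names whose clones differed most were added. Not every candidate under this rule is described above, among them MER4D1, MER1A, MER41D, Tigger4a, MLT2C2 and MER61I with a small p. HUERS-P2, HUERS-P3, LTR5A, LTR5B, MER22, ACRO1, SATR1, HSAT5, GGAAT and the names of the L1 range were further named after their values were seen where the rule did not already name them. The lists and the comparison were chosen with earlier results of these data known. Alternatives were DESeq2 1.42.0, limma 3.58.1 on TPM, other scalings and filters, blocks, left-out libraries and summed families. The ACTB and GAPDH scaling, the fits without ALU, ACTB and GAPDH, the summed families, the other scalings of groups without overlap and the left-out libraries with sequences kept were chosen after seeing the data. The edgeR script was tested on simulated data.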

Additional observations from a re-analysis of the deposited data

Results flagged for a closer look

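The dox response differed between PB and EXOSC3r cells, with the line as a block, by 0.75 on the log2 scale for HERVH, 0.83 for 6kbHsap and 1.10 for MER22, all higher in PB cells. The edgeR adjusted p-values were 0.0202, 0.0202 and 0.0235 with the block and 0.40, 0.0763 and 0.0763 without it.

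Among sequences with a mean of at least 100 CPM whose clones went in opposite directions, the gap between the clones' log2 ratios was 1.28 for HERVK, 0.95 for LTR5_Hs, 0.89 for CHESHIRE_A, 0.61 for ALU and 0.54 for CHARLIE9, with clone 1 higher and clone 2 lower with dox in each. These gaps were not tested, since each clone has 1 library per arm.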

How the results depend on the processing

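The number of sequences that passed for dox in EXOSC3r cells, 1 in the edgeR fit, was 0 with DESeq2 size factors (23 at an unadjusted p under 0.05), total counts (7), ACTB and GAPDH scaling (5) or summed families (17). It was 2 with at least 10 counts in all 6 libraries, with limma on log2(TPM + 1) or with only the 4 EXOSC3r libraries, 3 without ALU, ACTB and GAPDH, and 4 with DESeq2 or with limma on log2(TPM + 0.1). These were different sequences: the stricter filter and the 4 libraries called ALR and ALR1, whereas limma called HSAT4 and MER57E2, with MER63B and MER63C added at the smaller pseudocount, and neither ALR nor ALR1. With the replicate block (line) it was 9 over all 6 libraries and 9 over the 4 EXOSC3r libraries, and 2 with summed families. Leaving out 1 library gave 0 to 4 calls, and 0 to 2 with the tested sequences kept. Without clone 1 lacking dox 0 passed. Without clone 2 with dox 4 passed, or 0 with the sequences kept (ALR adjusted p = 0.0518). Without clone 2 lacking dox 2 passed. The interaction count, 0 in the edgeR fit, was 1 with total counts or ACTB and GAPDH scaling, 2 with the stricter filter, 3 with DESeq2, limma on log2(TPM + 1), the replicate block or without ALU, ACTB and GAPDH, 7 with limma on log2(TPM + 0.1), 2 with the block and summed families, and 0 to 1 with 1 library left out. The interaction calls were also different sequences. DESeq2 and the block over all 6 libraries called HERVH, MER22 and 6kbHsap, and the stricter filter called MER22 and 6kbHsap. Total counts called MER58A, and limma on log2(TPM + 1) called MER57E2, MER58A and MER93. Groups without overlap numbered 45 higher and 64 lower on total counts, and 30 and 35 on ACTB and GAPDH scaling. The cause of these differences was not tested. The 9 sequences called with the block kept their sign in every alternative run. The alternatives reuse the libraries that selected these sequences, so this is not independent support. ALR ranged from 0.98 to 1.23 (called in 12 of 20) and HERVH from -0.56 to -0.40 (called in 4 of 20). On the TPM scale the median of all sequences shifted to -0.11 and -0.12. Of 1487 further values, mostly of single sequences, 1313 kept their direction and call, 48 came to pass, 8 no longer passed and 118 changed sign. With 2 clones and 1 or 2 residual degrees of freedom, small changes were not detectable.

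The sign of a log2 change differed from that of the edgeR fit in 118 values, for 25 sequences in the dox comparison and for ALR in the interaction, and 0 of these values passed the threshold in either setting. On total counts it was -0.0051 for TIGGER1, -0.022 for HERVL, -0.0097 for HERV39, -0.059 for HERVK, -0.015 for HERVK9I, -0.052 for GAPDH, -0.046 for ACTB, -0.028 for SVA2 and -0.040 for CHESHIRE_A. With limma on log2(TPM + 1) it was -0.10 for TIGGER1, -0.14 for HERVL, -0.11 for HERV39, -0.020 for LTR12C, -0.12 for HERVK, -0.042 for LTR5_Hs, -0.12 for HERVK9I, -0.0043 for HUERS-P3B, -0.012 for LTR17, -0.064 for 6kbHsap, -0.12 for GAPDH, -0.13 for ACTB, -0.084 for SVA2, -0.088 for CHESHIRE_A and -0.029 for CHARLIE9. With limma on log2(TPM + 0.1) it was -0.10 for TIGGER1, -0.14 for HERVL, -0.11 for HERV39, -0.020 for LTR12C, -0.12 for HERVK, -0.042 for LTR5_Hs, -0.12 for HERVK9I, -0.0059 for HUERS-P3B, -0.012 for LTR17, -0.066 for 6kbHsap, -0.12 for GAPDH, -0.13 for ACTB, -0.084 for SVA2, -0.088 for CHESHIRE_A and -0.031 for CHARLIE9. On ACTB and GAPDH scaling it was -0.050 for HERVK, 0.024 for L1M1_5, 0.0044 for THE1_I, -0.00027 for GAPDH, 0.011 for L1 and -0.016 for CHESHIRE_A. For HERVL it was -0.0057 with DESeq2 size factors, -0.0057 with DESeq2, -0.00064 with the stricter filter, -0.00078 with the 4 EXOSC3r libraries and the replicate block, -0.0013 with ALU, ACTB and GAPDH left out and -0.00020 with summed families and the replicate block. With 1 library left out the change ranged from -0.35 to 0.60 for ALU, from -0.076 to 0.073 for HERVL, from -0.0065 to 0.061 for HERV39, from -0.0013 to 0.23 for LTR12C, from -0.47 to 0.47 for HERVK, from -0.28 to 0.46 for LTR5_Hs, from -0.028 to 0.060 for HERVK9I, from -0.052 to 0.042 for L1M1_5, from -0.087 to 0.028 for L1PREC1, from -0.064 to 0.025 for L1HS, from -0.062 to 0.29 for LTR17, from -0.043 to 0.0084 for THE1_I, from -0.067 to 0.0019 for MER11B, from -0.35 to 0.33 for GAPDH, from -0.46 to 0.43 for ACTB, from -0.095 to 0.0077 for SVA_A, from -0.27 to 0.31 for SVA2, from -0.12 to 0.063 for L1, from -0.17 to 1.10 for GGAAT, from -0.40 to 0.032 for LTR7C, from -0.35 to 0.40 for CHESHIRE_A and from -0.30 to 0.49 for CHARLIE9. The interaction of ALR then ranged from -0.092 to 0.16.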
